A study of Mus musculus with 186 samples.

Results

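The genes described here are 31 enzymes and regulators of sterol and fatty acid synthesis, chosen by name from a table of 28338 gene symbols. All 31 were found and all 31 had enough counts to be tested in every comparison. They were read in 186 bulk RNA-seq libraries of mouse brain, made to compare Akap11 mutants with WT. The product of Akap11 is an anchoring protein that tethers protein kinase A, and the study asked how its loss changes gene expression across the brain. The libraries cover 6 regions (substantia nigra, thalamus, striatum, hippocampus and the prefrontal and somatosensory parts of the cortex), the ages of 4 and 12 weeks, and 3 genotypes, which are WT, heterozygous Akap11 +/- (HET) and homozygous Akap11 -/- (KO). Of the 36 resulting groups, 30 have 5 libraries and 6 have 6. There were 96 libraries at 4 weeks and 90 at 12 weeks. No drug or other agent is named in the labels, and the sources used here do not say how the mutant allele was made. They also do not say whether libraries of a group come from separate animals, so p-values measure the spread between these samples. Sample numbers recur across regions, as WT 913 does at 4 weeks and WT 1 at 12 weeks. Whether a shared number means the same animal is not stated, and the main fits across regions treat each library as separate.

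Cholesterol in the brain is made locally, because the blood-brain barrier keeps out most of the cholesterol carried in blood. Cells join acetyl-CoA units into mevalonate and isoprenoids, couple these to squalene, close the ring to a sterol and trim it to cholesterol. Fatty acid synthesis draws on the same acetyl-CoA. When sterols are scarce, the chaperone encoded by Scap carries the SREBP transcription factors, the products of Srebf1 and Srebf2, out of the endoplasmic reticulum, and the products of Insig1 and Insig2 hold them back when sterols are plentiful. Oligodendrocytes make large amounts of cholesterol and fatty acids while they lay down myelin, and astrocytes supply neurons.

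The 31 genes fall into 4 branches. The mevalonate and isoprenoid steps hold 7 genes (Acat2, Hmgcs1, Mvk, Pmvk, Mvd, Idi1 and Fdps). The squalene and sterol steps hold 11 (Fdft1, Sqle, Lss, Cyp51, Tm7sf2, Msmo1, Nsdhl, Hsd17b7, Ebp, Sc5d and Dhcr7). SREBP control and sterol carriage hold 6 (Srebf1, Srebf2, Scap, Insig1, Insig2 and Stard4). Fatty acid synthesis and desaturation hold 7 (Acaca, Fasn, Elovl6, Scd1, Scd2, Fads1 and Fads2). Levels are given as CPM, the count of a gene scaled to the size of its library, which do not account for gene length and are therefore compared between libraries and not between genes.

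The library labels were first checked. Akap11 (chr14:78492246-78536808 on GRCm38) stood in KO libraries at 5.08% to 7.99% of its WT level and lay below all WT and HET libraries in each of the 12 combinations of region and age. In HET libraries it stood at 50.2% to 62.1% of WT, and it lay below every WT library in 11 of the 12. The exception was substantia nigra at 4 weeks, in which Akap11 was low in the library labelled WT 92. Striatal projection neuron markers separated all 30 striatal libraries from every other library, dopamine neuron markers separated all 32 substantia nigra libraries, and thalamic markers separated 29 of 31 thalamic libraries. For dopamine markers the margin was narrow. In mean log2(CPM + 1), 4-week substantia nigra WT 42 stood at 2.629 for them, against 2.377 in 4-week thalamus WT 913. Its thalamic markers stood at 8.184, above the 8.035 and 8.174 of 4-week thalamus WT 913 and WT 914. Some 4-week libraries stood apart from their group in region markers: striatum KO 51, KO 161, KO 163 and WT 92, thalamus WT 913, WT 914 and WT 23, and substantia nigra WT 92, WT 42, KO 91 and KO 44. These 11 libraries, a set carried over from earlier work on the same data, were left out together in an alternative. The set is not complete. On the mean log2(CPM + 1) scale, striatal markers stood at 7.246 and 6.331 in 4-week somatosensory cortex HET 93 and HET 162 and at 6.273 in HET 5 of 12 weeks, against 3.926 to 4.194 in the other HET libraries of that region. In 4-week hippocampus, thalamic markers reached 7.244 in WT 23, against 3.929 in WT 92. Thalamus WT 23, which is in the set, had thalamic markers at 8.933, inside the range of its group.

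Between 4 and 12 weeks most of the pathway's transcripts became scarcer in WT brain. Of 186 tests (31 genes in 6 regions), 103 passed at an adjusted p below 0.05 in edgeR's quasi-likelihood test, against 20.6% of all genes, and of these 94 were lower at 12 weeks (11.4% of all genes) and 9 higher. In a fit of the WT libraries alone 83 passed, 76 of them lower (7.27% of all genes). Mvd, Dhcr7, Scap and Fasn fell in all 6 regions. With WT libraries alone Dhcr7 did so in 6 regions, Mvd and Fasn in 5 and Scap in 2. Srebf1, which encodes the SREBP-1 transcription factors, rose in 4 regions. The falls were widest in hippocampus, striatum and substantia nigra and fewest in prefrontal cortex. Ages were separate sets of libraries, so age and library set cannot be told apart. In bulk tissue, fewer cells of a type and less RNA per cell cannot be told apart either. The deposited values differ between library sets too: in 16 libraries, all of 4 weeks and 7 of them WT, 4.80% to 5.55% of values above 0 were whole numbers, against 17.3% to 36.9% in the other 170. The mean level of the 31 genes was the highest of its group in 9 of the 16, and in 4 of the 7 WT ones. Without the 16, an alternative chosen after seeing the data, 97 of 186 tests passed, 88 lower (10.8% of all genes) and 9 higher.

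The promoters of 3 of these genes are shown because Hmgcs1, Mvd and Fasn stand for the entry of the mevalonate branch, its later steps and fatty acid synthesis, and all 3 were lower at 12 weeks in at least 5 regions. Each sequence is the 250 bases before the start site in RefSeq on GRCm38.p6, 5′ to 3′ on the strand of the gene. Capitals mark matches to CACNCCAC or TCACNCCAC, a form of the sterol regulatory element bound by SREBPs, and to CCAAT, the box bound by NF-Y, on either strand, so a box on the opposite strand reads ATTGG.
Hmgcs1 (chr13:119690101-119690350, + strand): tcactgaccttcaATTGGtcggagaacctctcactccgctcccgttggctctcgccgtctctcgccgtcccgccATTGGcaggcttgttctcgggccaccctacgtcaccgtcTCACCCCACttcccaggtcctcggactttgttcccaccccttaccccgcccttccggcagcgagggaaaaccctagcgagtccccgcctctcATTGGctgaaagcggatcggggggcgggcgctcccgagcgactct
Mvd (chr8:122443423-122443672, - strand): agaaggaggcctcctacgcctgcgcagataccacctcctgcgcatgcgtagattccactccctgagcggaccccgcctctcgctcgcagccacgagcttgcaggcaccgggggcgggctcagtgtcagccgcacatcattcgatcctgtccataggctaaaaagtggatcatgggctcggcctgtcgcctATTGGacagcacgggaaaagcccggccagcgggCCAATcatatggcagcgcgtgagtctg
Fasn (chr11:120824548-120824797, - strand): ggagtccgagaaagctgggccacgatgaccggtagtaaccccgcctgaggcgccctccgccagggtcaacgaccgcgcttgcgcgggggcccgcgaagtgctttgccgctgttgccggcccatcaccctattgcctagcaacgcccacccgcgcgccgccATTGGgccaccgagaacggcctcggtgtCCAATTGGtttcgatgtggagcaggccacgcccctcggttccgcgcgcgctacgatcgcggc
The Hmgcs1 window held a match to TCACNCCAC whose first base lies 137 bases before the start, and 3 CCAAT boxes. The Mvd window held 2 CCAAT boxes and the Fasn window 3, of which 2 overlap by their last and first bases. RefSeq promoters of 300 bases (250 before and 50 after the start) were matched for 24 of the 31 genes, as 32 promoters. CCAAT occurred in 20 of these 32 promoters (62.5%), against 37.4% of all 32851 promoters of that length. CACGTG, an E-box, occurred in 6 (18.8%), against 7.15% of all. CACNCCAC occurred in 3 (9.38%, in Acat2, Hmgcs1 and Insig1), against 6.24% of all, and TCACNCCAC, which contains it, in 1 (3.12%, Hmgcs1), against 1.24%. These shares describe letters in the window and carry no test.

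**Figure D1:**
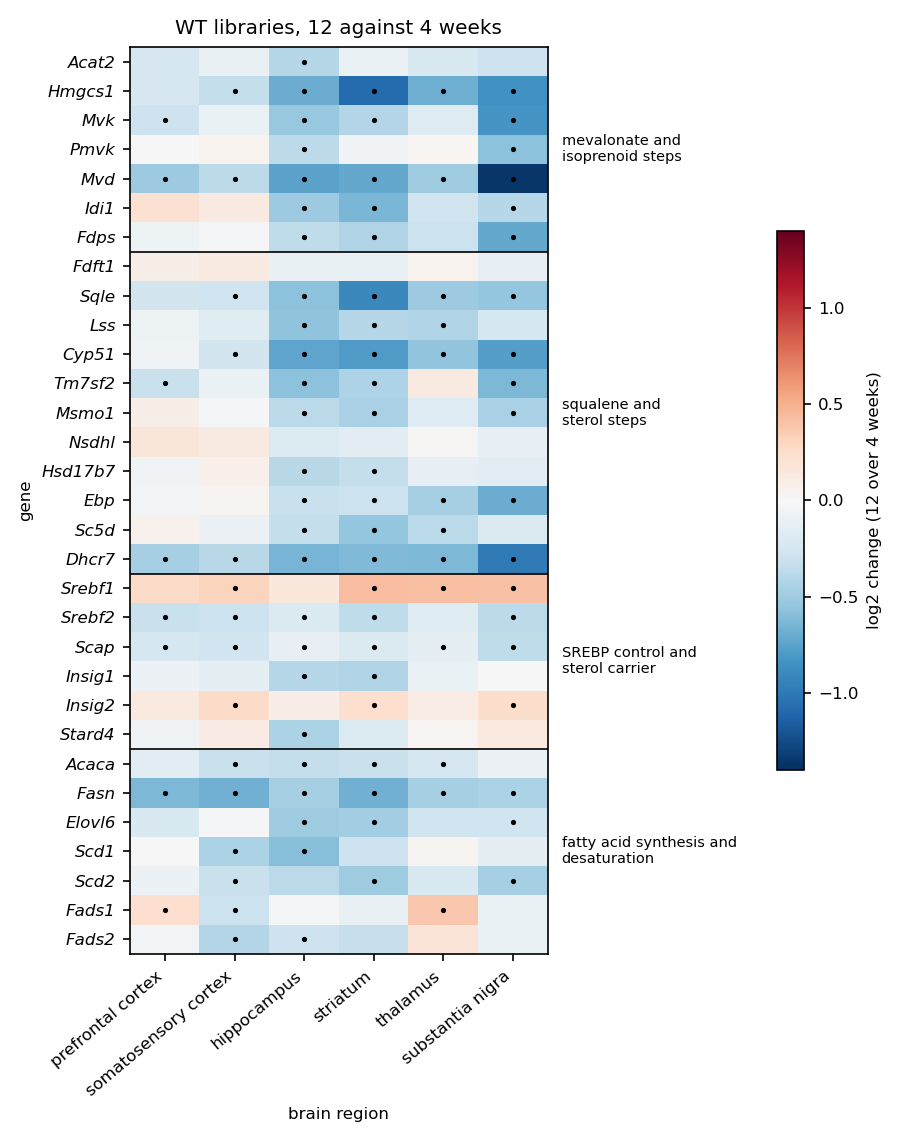
Change in WT libraries from 4 to 12 weeks for the 31 genes (rows, grouped by branch) in 6 regions (columns), as log2 of 12 over 4 weeks (color), with a dot where the adjusted p was below 0.05. Blue cells fill most of the hippocampus, striatum and substantia nigra columns, and Srebf1 and Insig2 are the rows that stand out as higher at 12 weeks.

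Hmgcs1 encodes the cytosolic HMG-CoA synthase that opens the mevalonate branch (chr13:119690379-119708260). In striatum the WT libraries read 256.0, 287.1, 316.1, 324.2 and 397.7 CPM at 4 weeks and 132.3, 140.6, 149.1, 152.3 and 156.7 CPM at 12 weeks. The ages did not overlap, and the level at 12 weeks was 47.2% of that at 4 weeks (log2 change −1.08 ± 0.10 SE, adjusted p = 2.92e-08). In substantia nigra Hmgcs1 went from 461.5 to 685.7 CPM over 6 libraries (median 541.0) to 292.0 to 339.3 CPM over 5, again without overlap (−0.85 ± 0.11, adjusted p = 6.75e-06). The changes were −0.69 in hippocampus, −0.68 in thalamus and −0.34 in somatosensory cortex, each past the threshold. In prefrontal cortex the 5 libraries of 12 weeks (299.0 to 319.6 CPM) lay inside the 4-week range of 298.3 to 499.6 CPM, and the change of −0.23 did not pass (adjusted p = 0.202).

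Mvd encodes the decarboxylase that makes isopentenyl pyrophosphate (chr8:122433601-122443422). It read 17.69, 18.39, 20.44, 20.88 and 22.01 CPM in 4-week striatum against 10.74, 11.31, 11.51, 12.81 and 13.04 CPM at 12 weeks (log2 change −0.71 ± 0.14, adjusted p = 0.000556). No library overlapped. In prefrontal cortex it fell from 20.16 to 25.61 CPM to 13.59 to 17.60 CPM (−0.51 ± 0.09, adjusted p = 0.000206). In substantia nigra the 4-week values were 27.38, 29.34, 29.39, 37.19, 39.06 and 118.5 CPM and the 12-week values 14.66 to 21.15 CPM. The highest value came from the library labelled WT 92. With it the log2 change was −1.36 ± 0.25 and without it −0.82 (adjusted p = 8.75e-06), so Mvd fell with or without that library. Of the other genes of the branch, Mvk was lower in 4 regions, Idi1 and Fdps in 3, Pmvk in 2 and Acat2 in 1.

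Within the squalene and sterol steps, Dhcr7, which encodes the reductase that completes cholesterol (chr7:143823145-143848410), fell in every region. In striatum it went from 33.20 to 40.89 CPM (median 36.62) to 21.56 to 25.58 CPM (median 23.09). In substantia nigra it went from 70.30 to 122.1 CPM to 41.95 to 47.10 CPM, where 12 weeks stood at 50.3% of 4 weeks (log2 change −0.99 ± 0.11, adjusted p = 2.11e-07). The changes in the other 5 regions ran from −0.66 to −0.39. The 12-week WT libraries lay below every 4-week WT library for Dhcr7 in all 6 regions.

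Sqle encodes squalene epoxidase, a rate-limiting oxygenase of the pathway (chr15:59315077-59331192). Its 4-week striatal values were 52.57, 52.66, 57.22, 59.17 and 68.45 CPM and its 12-week values 28.29, 29.76, 29.92, 30.24 and 33.49 CPM. That is 53.4% of the earlier level (log2 change −0.91 ± 0.11, adjusted p = 2.21e-06). Sqle fell in 5 regions and in prefrontal cortex gave −0.25 (adjusted p = 0.0501). Cyp51, the lanosterol demethylase (chr5:4081145-4104746), read 62.68 to 71.99 CPM in 4-week striatum and 32.65 to 41.42 CPM at 12 weeks (−0.80 ± 0.09, adjusted p = 8.19e-07). In prefrontal cortex its ages overlapped, at 50.59 to 69.53 and 54.30 to 63.05 CPM (−0.05, adjusted p = 0.727). Tm7sf2 and Ebp were lower in 4 regions, Lss, Msmo1 and Sc5d in 3 and Hsd17b7 in 2. Fdft1, the synthase that couples isoprenoids into squalene, and Nsdhl passed in none of the 6 regions.

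**Figure D2:**
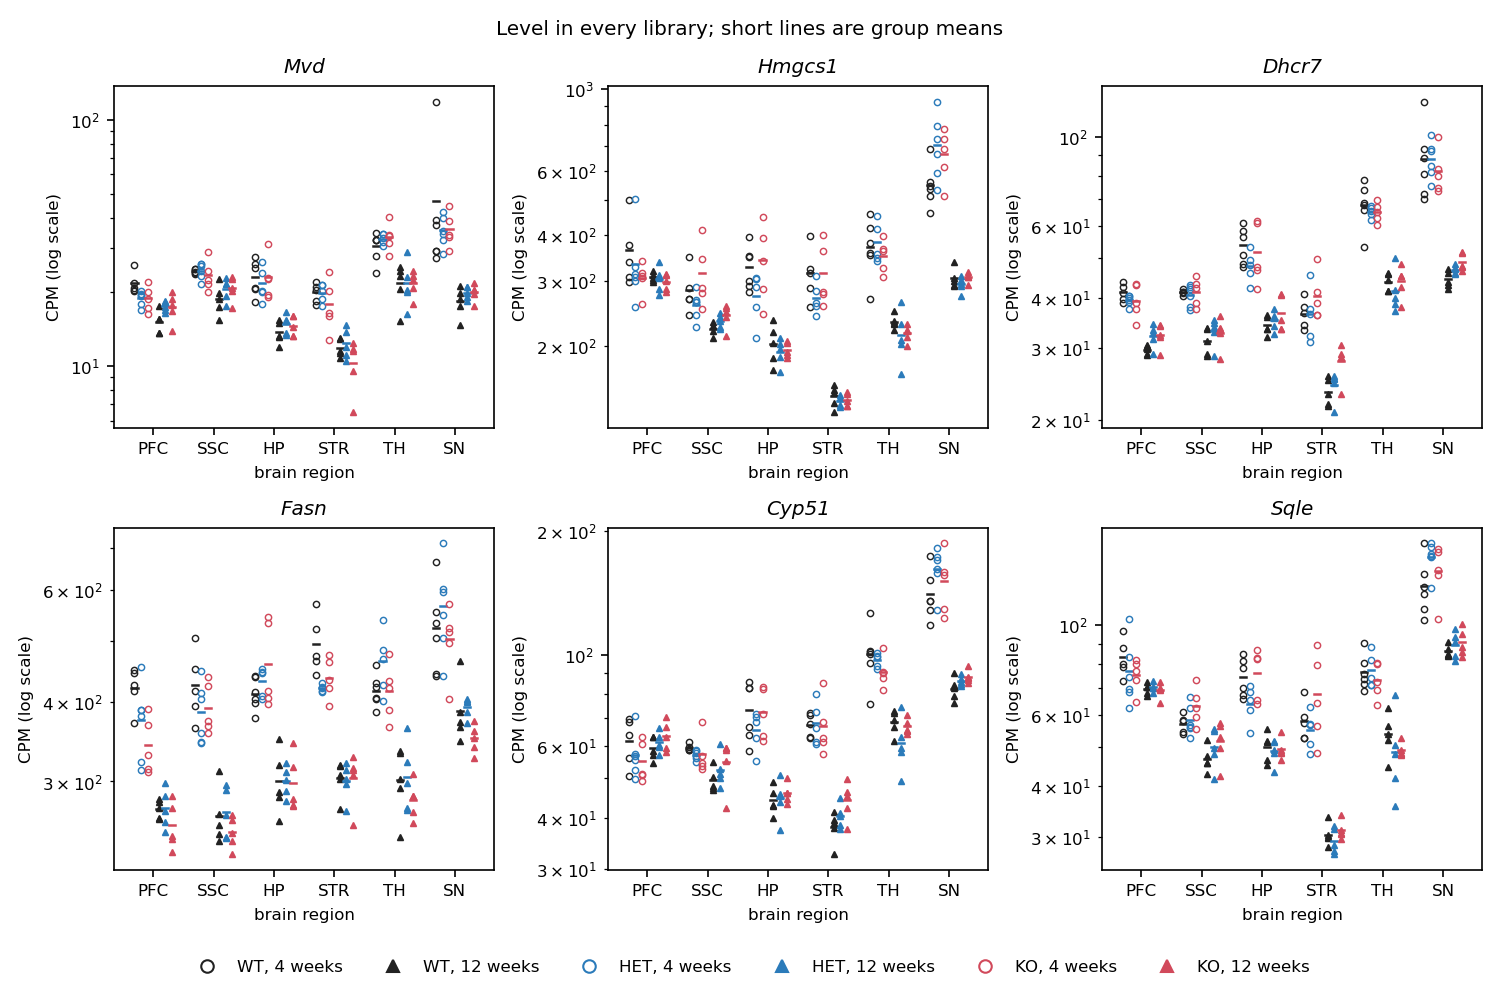
CPM (log scale) of the 6 genes with the largest mean age change in every library, by region (PFC and SSC, prefrontal and somatosensory cortex; HP, hippocampus; STR, striatum; TH, thalamus; SN, substantia nigra), age and genotype, with group means as short lines. In hippocampus, striatum and substantia nigra the 12-week triangles of Hmgcs1 lie below the 4-week circles in all 3 genotypes, and 1 WT circle of Mvd in substantia nigra stands at 118.5 CPM.

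Among fatty acid enzymes, Fasn, the fatty acid synthase (chr11:120805846-120824547), was lower in all 6 regions. In striatum it went from 441.5 to 570.5 CPM to 271.1 to 319.0 CPM, 62.7% of the earlier level (log2 change −0.67 ± 0.07, adjusted p = 1.49e-07). In somatosensory cortex it went from 363.6 to 504.5 CPM to 242.0 to 311.6 CPM (−0.68). Fasn and Dhcr7 were the leading falls in prefrontal cortex together with Mvd, at −0.63, −0.46 and −0.51. Acaca, the carboxylase that supplies malonyl-CoA, fell in 4 regions with changes of −0.34 to −0.24. Elovl6 and Scd2 fell in 3 regions, and Scd1 and Fads2 in 2. Fads1, a desaturase of polyunsaturated fatty acids, went both ways: it was lower in somatosensory cortex (−0.31, adjusted p = 0.0313) and higher in prefrontal cortex (0.23, adjusted p = 0.0252) and thalamus (0.38, adjusted p = 0.00564).

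The regulators split. Srebf2, whose product chiefly drives the sterol genes, fell in 5 regions, and Scap fell in all 6 by smaller amounts (−0.36 to −0.11 on the log2 scale). In the fit of WT libraries alone Srebf2 passed in 3 regions and Scap in 2. Srebf1, whose main product drives the fatty acid genes, rose. In striatum Srebf1 (chr11:60199089-60222581) read 40.32, 41.88, 44.87, 46.64 and 51.04 CPM at 4 weeks and 54.30, 57.15, 61.01, 61.55 and 62.36 CPM at 12 weeks. Every 12-week library was above every 4-week library (log2 change 0.43 ± 0.09, adjusted p = 0.000907). In substantia nigra it went from 72.47 to 85.69 CPM to 92.88 to 120.6 CPM (0.41), in thalamus from 62.66 to 75.18 CPM to 82.74 to 102.3 CPM (0.43) and in somatosensory cortex the change was 0.31. Hippocampus (0.15, adjusted p = 0.361) and prefrontal cortex (0.27, adjusted p = 0.103) did not pass. Insig2 rose in somatosensory cortex (0.26), striatum (0.23) and substantia nigra (0.24). Insig1, in contrast, fell in hippocampus (−0.40) and striatum (−0.42). Stard4, a sterol carrier, fell in hippocampus alone among the 6 tests (−0.44).

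By region, 8 of the 31 genes passed in prefrontal cortex, where 19.1% of all genes tested passed, and 7 of the 8 were lower, as were 10.2% of all genes. In somatosensory cortex 15 passed (27.1% of all genes), 13 of them lower (13.7%). In hippocampus 25 passed (17.7%), all lower (10.6%). In striatum 23 passed (18.5%), 21 of them lower (9.41%). In thalamus 13 passed (22.6%), 11 of them lower (12.6%). In substantia nigra 19 passed (18.6%), 17 of them lower (11.8%). The median log2 change of the 31 genes was −0.07, −0.11, −0.38, −0.40, −0.19 and −0.36 in that order, while the median of all genes was between −0.02 and 0.02 in each region. Every gene of the mevalonate branch passed as lower in hippocampus, 7 of 7, with 9 of 11 sterol, 4 of 6 control and 5 of 7 fatty acid genes.

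Counted by overlap alone, all WT libraries of 12 weeks lay below all of 4 weeks for 16 genes in hippocampus (5.49% of all genes above 0.5 CPM did so), 16 in striatum (7.80%) and 12 in substantia nigra (6.24%). The count was 11 in somatosensory cortex (10.4%) and 6 in both prefrontal cortex (8.24%) and thalamus (5.41%). The reverse held for 0 genes in hippocampus (4.56% of all genes), 1 in striatum (4.36%) and 1 in substantia nigra (4.95%), and for 1 in somatosensory cortex (8.31%), 0 in prefrontal cortex (5.34%) and 2 in thalamus (5.29%). The genes with no overlap in the upward direction were Srebf1 in striatum, thalamus and substantia nigra, Fads1 in thalamus and Insig2 in somatosensory cortex.

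The contrast was also read in HET and KO libraries, which are other samples than the WT ones but share with them 1 estimate of the spread in each region. In KO libraries, 24 of the 31 genes were lower at 12 weeks in hippocampus (11.4% of all genes), 22 in striatum (13.9%), 16 in substantia nigra (7.38%) and 15 in thalamus (10.3%), but 3 in prefrontal cortex (5.23%) and 8 in somatosensory cortex (12.9%). In HET libraries the counts were 16 in hippocampus (8.71%), 17 in striatum (7.81%), 18 in substantia nigra (5.93%), 17 in thalamus (8.27%), 3 in prefrontal cortex (6.55%) and 8 in somatosensory cortex (12.7%). Over the 6 regions 88 of 186 tests were lower in KO and 79 in HET, and 6 and 11 were higher, against 8.77% and 7.09% of all genes. Single genes differed between genotypes in their counts. Srebf1 was higher in 4 regions in WT (mean log2 change 0.33), 3 in HET (0.29) and 2 in KO (0.10, with 2 regions below 0). Scd1 was lower in 2 regions in WT and 0 in HET and in KO. The age change in KO against that in WT was tested as such, with the KO effects below, and 0 of the 31 genes passed. The mean log2(CPM + 1) of the 31 genes dropped in WT striatum from 6.035 ± 0.092 (SD, n = 5) to 5.644 ± 0.047 (SD, n = 5). In hippocampus, striatum and substantia nigra all 5 libraries of 12 weeks were below all libraries of 4 weeks in each of the 3 genotypes. In prefrontal cortex 3 of 5 WT libraries were, and 0 of 5 in HET and in KO.

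Myelin genes moved with these changes. Of 11 markers of myelinating oligodendrocytes, 10 were lower at 12 weeks in WT substantia nigra, 9 in striatum, 9 in hippocampus, 8 in thalamus, 8 in somatosensory cortex and 2 in prefrontal cortex, and 0 were higher in any region. Their summed level in WT striatum was 11779 to 23046 CPM at 4 weeks and 5312 to 7000 CPM at 12 weeks. In substantia nigra it was 23941 to 68755 and 11701 to 15117 CPM, in hippocampus 8092 to 17367 and 4475 to 6759 CPM. In thalamus the ranges overlapped, at 10092 to 31395 and 7807 to 12925 CPM. In prefrontal cortex they were 873.0 to 2310 and 635.3 to 926.4 CPM, and in somatosensory cortex 3294 to 5423 and 2075 to 2387 CPM. None of the 11 was at 0 in any WT group. Of 8 markers of newly formed oligodendrocytes and precursors, 4 to 7 were lower in each region. Of 8 astrocyte markers, 0 to 5 were lower per region.

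With the mean myelin marker level as a covariate in the edgeR fit, 47 of 186 tests passed, 35 lower (9.19% of all genes) and 12 higher (8.49% of all genes). Dhcr7 and Fasn still passed as lower in 5 of 6 regions, and Srebf1 as higher in 3, while the mean change of Dhcr7 over the regions went from −0.63 to −0.37. Mvd and Scap went from 6 regions to 3, Cyp51 and Sqle from 5 to 3, and Hmgcs1 and Srebf2 from 5 to 2. In substantia nigra under this fit Mvd gave 0.29, Sqle 0.028 and Fasn 0.0003 on the log2 scale. In WT libraries of somatosensory cortex, hippocampus, striatum and substantia nigra the marker ranges of the ages did not overlap. Among those libraries marker level and age cannot be told apart. The fit also used HET and KO libraries, and over all genotypes only substantia nigra kept the ages apart. In hippocampus, the mean log2(CPM + 1) of the markers was 7.638 in HET 162 of 4 weeks and 8.317 in KO 4 of 12 weeks. How far the fit separates marker level from age where ranges overlap was not tested. Region markers also moved: 7 of 8 thalamic markers were lower in 12-week hippocampus (178.7 to 1511 CPM summed at 4 weeks, 132.3 to 271.8 CPM at 12 weeks). In substantia nigra 5 of 8 dopamine neuron markers were higher (182.5 to 3572 and 3800 to 4957 CPM) and 5 of 8 thalamic markers lower (348.6 to 3293 and 295.4 to 405.1 CPM). In striatum 5 of 7 cortical and hippocampal excitatory markers were lower, and their sum reached 1040 CPM in 1 WT library of 4 weeks against a group median of 39.71 CPM. The part of these markers in the age changes was not tested beyond the covariate fit. Without the libraries that stood apart, 23 of the 31 genes passed in striatum (17.7% of all genes), 20 in substantia nigra (17.3%) and 12 in thalamus (15.6%). Without hippocampus WT 23, 24 passed in hippocampus. In the fit of WT libraries alone, 6 passed in substantia nigra (4.24% of all genes), and Mvd there gave −1.34 with an adjusted p of 0.0677.

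**Figure D3:**
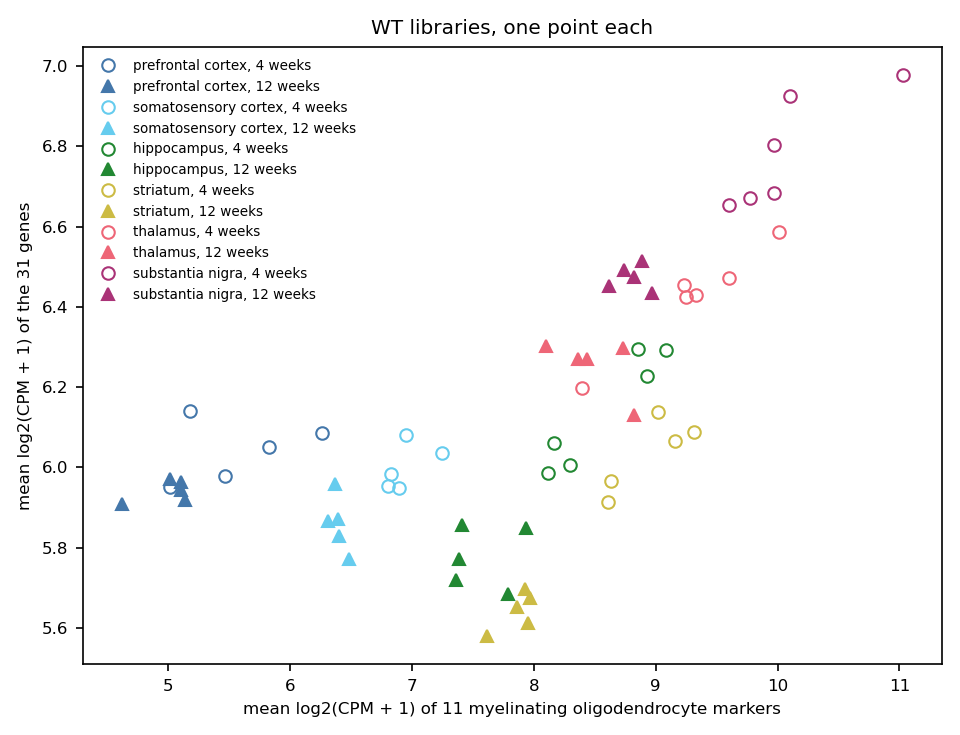
Mean log2(CPM + 1) of the 31 genes (vertical axis) against that of 11 myelinating oligodendrocyte markers (horizontal axis) in the 63 WT libraries, by region (color) and age (open circles, 4 weeks; triangles, 12 weeks). In hippocampus, striatum and substantia nigra the 12-week libraries lie lower on both axes than the 4-week ones, while prefrontal cortex holds similar gene levels at marker levels far below those of striatum.

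The other genes of lipid metabolism, from lists of the wider pathway, were read beside the 31. Over all genes 9.41% to 13.7% were lower per region and 6.86% to 13.5% higher, which is the background for these counts. Of 23 other genes of fatty acid and lipid synthesis, 11 were lower in substantia nigra, 10 in each of thalamus, striatum and hippocampus, 8 in somatosensory and 3 in prefrontal cortex, with 1, 2, 0, 0, 1 and 0 higher. Their leading members in hippocampus were the myelin galactolipid genes Ugt8a (−1.59), Gal3st1 (−1.17) and Fa2h (−1.11). Of 22 genes of sterol transport, storage and turnover, 4 to 6 were lower per region and 0 to 4 higher. Lrp1, a lipoprotein receptor, led in prefrontal cortex (−0.39), and Cyp46a1, the neuronal enzyme that clears cholesterol as 24-hydroxycholesterol, led in substantia nigra (−1.42). Of 20 tested genes of isoprenoid branches and SREBP processing, 0 to 4 were lower and 1 or 2 higher. Thrsp, a lipogenic protein, led in hippocampus (0.81).

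The age change differed between regions for 10 genes, each tested in 1 region against the mean of the other 5. In prefrontal cortex, Cyp51 (difference 0.57 ± 0.11, adjusted p = 0.00550) and Idi1 (0.56 ± 0.12, adjusted p = 0.0187) differed upward, where 0.239% of all genes passed this test. In striatum, Sqle fell further (−0.50 ± 0.10, adjusted p = 0.0153), where 0.120% of all genes passed. In thalamus (2.84% of all genes), Tm7sf2 (0.54), Fads1 (0.45) and Fads2 (0.41) differed upward. In substantia nigra (8.22% of all genes), Mvd (−0.78), Mvk (−0.51), Ebp (−0.47) and Dhcr7 (−0.43) differed downward. Somatosensory cortex (0.0342%) and hippocampus (0.154%) had 0 calls. Without the libraries that stood apart, prefrontal cortex had 3 calls, hippocampus 1, striatum 1, thalamus 0 and substantia nigra 1.

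Loss of Akap11 changed none of the 31 transcripts past the threshold. In KO against WT, 0 of 372 tests (31 genes in 12 sets of region and age) passed in edgeR or in DESeq2, against 0.644% of all genes, and 35 had an unadjusted p below 0.05, 38 by DESeq2. Those 35 are 9.41% of these tests, against 8.73% over all genes. In HET against WT, 0 of 372 passed with either tool, against 0.00521% of all genes, and 21 had an unadjusted p below 0.05 (5.65%, against 5.39% of all genes), 29 by DESeq2. The smallest adjusted p was 0.0999 in KO and 0.289 in HET. The 95% interval lay within a 1.5-fold change either way in 360 of the 372 KO tests and 360 of the 372 HET tests, and the largest change on the log2 scale was 0.44 in KO and 0.47 in HET. Median changes over the 31 genes ran from −0.10 to 0.06 in KO and −0.14 to 0.13 in HET.

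Striatum is the region where KO libraries differed most from WT over all genes, with 3.35% of genes passing at 4 weeks and 4.42% at 12 weeks, against at most 0.0564% in any of the other 10 sets. Of the 31 genes 0 passed there. At an unadjusted p below 0.05, 7 of the 31 did at 4 weeks (17.9% of all genes) and 6 at 12 weeks (15.9% of all genes). In none of the 12 sets did all KO libraries lie above or below all WT libraries for any of the 31 genes, while 1.56% of all genes did so over the 12 sets, 3.68% in striatum at 4 weeks and 5.62% at 12 weeks. The median of the 31 was 0.05 at 4 weeks and 0.04 at 12 weeks, against −0.00 and 0.01 for all genes. Of the 31, 13 were higher in KO striatum at both ages, 5 lower at both and 13 of opposite sign. Other sets had more uneven signs. In 4-week prefrontal cortex 28 of the 31 were lower in KO and 29 in HET, which share the WT libraries, against 47.5% and 48.6% of all genes. In 12-week somatosensory cortex 24 were higher in KO and 25 in HET, against 47.9% and 48.3% of all genes. These tallies carry no test. Without the libraries that stood apart 0 of the 31 passed in 4-week striatum, thalamus or substantia nigra, in KO or in HET. In substantia nigra that leaves KO 161, KO 163 and KO 932, and in striatum only KO 12 and KO 932. Each 4-week striatal KO value given below without those libraries rests on KO 12 and KO 932 alone. Cortical and hippocampal excitatory markers averaged 6.635, 5.632 and 6.087 in log2(CPM + 1) in 4-week striatal KO 161, KO 163 and KO 51. They averaged 5.496 in WT 92 and 0.975 to 2.021 in the other KO and WT libraries of that set. Their part in the KO differences of 4-week striatum was not tested beyond leaving those libraries out.

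**Figure D4:**
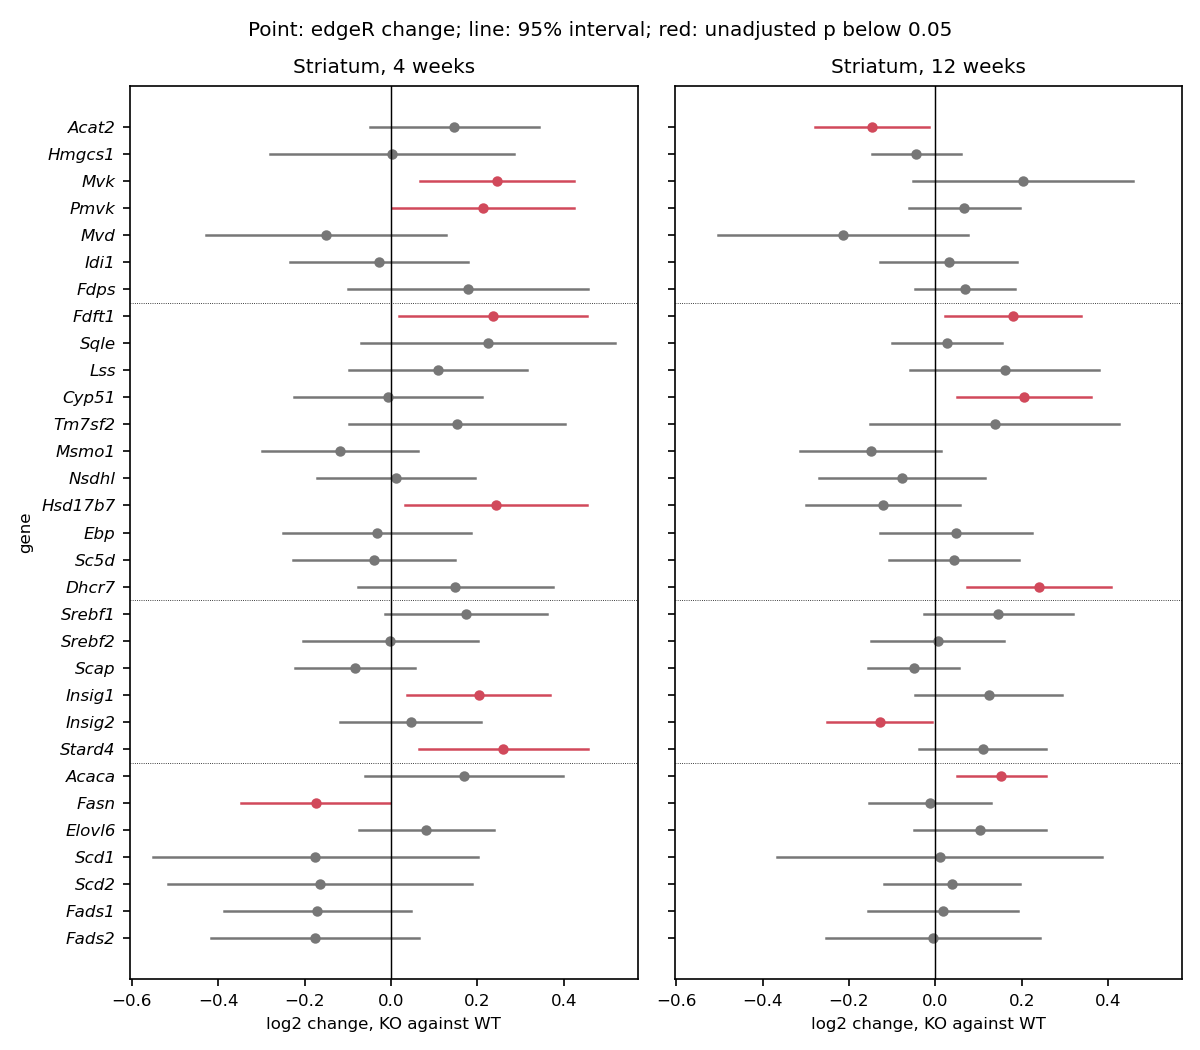
Log2 change of the 31 genes in KO against WT striatum at 4 (left) and 12 weeks (right), with 95% intervals and red where the unadjusted p was below 0.05. Most points lie between −0.2 and 0.3, and no gene passed after adjustment.

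The 6 genes with the largest mean KO change over the 12 sets were Srebf1 (0.16 in absolute log2 units), Mvd (0.14), Stard4 (0.14), Insig1 (0.12), Pmvk (0.11) and Mvk (0.11). Stard4, a sterol carrier (chr18:33199355-33213862), read 21.76, 27.57, 27.58, 28.42 and 29.35 CPM in 4-week WT striatum and 26.50, 29.27, 33.24, 33.94 and 38.17 CPM in KO (log2 change 0.26 ± 0.09, adjusted p = 0.140). The groups overlapped in their lower KO libraries. At 12 weeks Stard4 read 21.70 to 25.73 CPM in WT and 21.94 to 27.54 CPM in KO. Without the 4-week libraries that stood apart its change was 0.15, and without KO 12 it was 0.32 with an adjusted p of 0.0357. KO 12 is among the 16 libraries with few whole values, as are WT 914 and WT 92 of 4-week striatum. Leaving KO 12 out keeps KO 51, KO 161 and KO 163, so the value of 0.32 rests mostly on KO libraries that stood apart. Cortical and hippocampal excitatory markers stood at 6.087, 6.635 and 5.632 in these, against 1.065 in KO 932 (mean log2(CPM + 1)).

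Srebf1 read 40.32 to 51.04 CPM in 4-week WT striatum, 41.12 to 46.84 CPM in HET and 42.30, 46.48, 51.99, 52.55 and 60.37 CPM in KO (log2 change 0.17 ± 0.09, adjusted p = 0.319). At 12 weeks KO read 61.51, 61.76, 62.72, 68.17 and 76.78 CPM against 54.30 to 62.36 CPM in WT (0.15 ± 0.08, adjusted p = 0.419). Both KO ranges overlapped WT. Without the libraries that stood apart the 4-week value was 0.20 (adjusted p = 0.357). Insig1 (chr5:28071363-28078662), which retains SREBPs, gave 0.20 ± 0.08 at 4 weeks (adjusted p = 0.173), with WT at 61.37 to 75.81 CPM and KO at 63.58 to 86.76 CPM, and 0.24 without those libraries (adjusted p = 0.122). At 12 weeks WT was at 44.52 to 56.22 CPM and KO at 44.56 to 58.79 CPM.

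Mvk (chr5:114444269-114460591) and Pmvk (chr3:89454541-89469013) encode the kinases that phosphorylate mevalonate in turn. In 4-week striatum Mvk read 16.18 to 18.86 CPM in WT and 18.17, 18.48, 19.74, 22.28 and 24.94 CPM in KO (0.24 ± 0.08, adjusted p = 0.127). Pmvk read 17.00 to 22.14 CPM in WT and 18.16 to 26.30 CPM in KO (0.21 ± 0.10, adjusted p = 0.276). Without the libraries that stood apart these values were 0.13 for Mvk and 0.02 for Pmvk. Mvd had the opposite sign at both ages, at −0.15 (adjusted p = 0.603) and −0.21 (adjusted p = 0.502), and at 12 weeks its lowest KO library read 6.485 CPM against 10.74 to 13.04 CPM in WT. Without the libraries that stood apart, which leaves KO 12 and KO 932, Mvd gave −0.44 at 4 weeks (adjusted p = 0.0607).

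At 12 weeks the KO striatal values nearest to the threshold were those of Acaca (chr11:84129672-84401651) and Dhcr7. Acaca read 57.57, 58.18, 58.98, 60.01 and 65.88 CPM in WT and 64.44, 66.76, 66.92, 67.69 and 71.16 CPM in KO (log2 change 0.15 ± 0.05, adjusted p = 0.0999), so that 1 KO library lay within the WT range. Dhcr7 read 21.56 to 25.58 CPM in WT and 23.10, 28.40, 28.48, 29.02 and 30.52 CPM in KO (0.24 ± 0.08, adjusted p = 0.108). Acaca passed when WT 2 was left out (0.18, adjusted p = 0.0484). Dhcr7 passed when KO 2 was left out (0.29, adjusted p = 0.0345) and in the fit with the replicate number as a block (0.24, adjusted p = 0.0287). Glial markers in the same comparison were few: in 4-week KO striatum the astrocyte marker Aqp4 and the microglial markers C1qa and C1qb were lower, 0 of 11 myelin markers passed, and at 12 weeks 0 of these markers passed.

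The KO change did not differ detectably between ages or between striatum and other regions for these genes. In the test of the KO effect at 12 against 4 weeks, 0 of 186 passed in edgeR and in DESeq2, as did 0% of all genes in edgeR. The smallest adjusted p in edgeR was 0.594. By either tool 9 had an unadjusted p below 0.05, which is 4.84% of these tests, against 5.21% over all genes in edgeR. In the test of the KO effect in striatum against the mean of the other 5 regions, 0 of 62 passed in both tools, with 6 at an unadjusted p below 0.05 (4 by DESeq2) and a smallest adjusted p of 0.181, while 2.34% of all genes passed at 4 weeks and 3.34% at 12 weeks.

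Among 65 tested genes of the wider lists, 1 passed in 12-week KO striatum (1.54%, against 4.42% of all genes). Lbr (chr1:181815335-181843046) encodes the lamin B receptor, a nuclear envelope protein that carries the sterol C14 reductase activity shared with Tm7sf2. In 12-week striatum Lbr read 6.704, 6.918, 6.998, 7.014 and 8.356 CPM in WT, 6.966 to 8.128 CPM in HET and 8.398, 9.322, 9.328, 9.924 and 10.51 CPM in KO. Every KO library was above every WT library (log2 change 0.39 ± 0.08, adjusted p = 0.0119, and between 0.00115 and 0.0384 over the alternatives). The KO effect in striatum exceeded the mean of the other 5 regions by 0.28 ± 0.08 (adjusted p = 0.0284). At 4 weeks Lbr averaged 8.937 ± 1.456 CPM (SD, n = 5) in WT and 11.04 ± 1.797 CPM (SD, n = 5) in KO (0.30 ± 0.14, adjusted p = 0.278, and 0.07 without the libraries that stood apart), and the difference between the ages was 0.07 (adjusted p = 0.972). It was the 1 gene that passed in any KO or HET comparison among the other lipid synthesis, isoprenoid and sterol transport genes listed. It was singled out after its values were seen. Tm7sf2 itself did not pass in KO striatum at either age.

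Within WT brain the pathway was most abundant in substantia nigra and thalamus. The mean level of 26 of the 31 genes at 4 weeks, and of 21 at 12 weeks, was highest in substantia nigra, and that of 3 and 7 in thalamus. Against the mean of the other 5 regions, 27 of the 31 were higher in substantia nigra at 4 weeks (31.4% of all genes) and 28 at 12 weeks (35.7%), and 0 and 1 lower (27.5% and 32.1%). Thalamus had 16 and 20 higher (25.9% and 34.1%) and 3 and 4 lower (22.2% and 32.7%). Without the 4-week libraries that stood apart, 28 were higher in substantia nigra (29.0% of all genes) and 18 in thalamus (28.0%). Striatum had 15 and 22 lower (26.1% and 34.7%) and 3 and 2 higher (26.8% and 32.5%), and it was the lowest region for 8 genes at 4 weeks and 17 at 12 weeks. The cortex was mostly lower at 4 weeks, with 14 lower in prefrontal (21.3%) and 18 in somatosensory cortex (19.0%), against 2 (21.7%) and 0 (19.4%) higher. By 12 weeks prefrontal cortex had 10 lower (27.8%) and 9 higher (29.2%), and somatosensory cortex 16 lower (27.7%) and 2 higher (28.7%). Hippocampus went from 5 lower (16.7%) to 20 lower (26.7%), with 0 higher at both ages (19.7% and 27.8%).

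The desaturase genes Scd1 (chr19:44394455-44407879) and Scd2 (chr19:44293674-44306864), which place the double bond of oleate, had the widest range among regions together with Pmvk and Srebf1. Scd2 averaged 4081 ± 739.8 CPM (SD, n = 6) in 4-week substantia nigra and 1120 ± 169.2 CPM (SD, n = 5) in prefrontal cortex. At 12 weeks these were 2968 ± 191.0 and 1056 ± 81.86 CPM (SD, n = 5 each). The change against the mean of the other regions was 1.10 and 0.97 in substantia nigra and −1.11 and −0.82 in prefrontal cortex. Scd1 too was highest in substantia nigra and thalamus and lowest in prefrontal cortex, but the regions between them came in another order than for Scd2. At 4 weeks it read 302.8 to 642.4 CPM in substantia nigra, 280.8 to 463.4 CPM in thalamus and 98.27 to 138.0 CPM in prefrontal cortex. At 12 weeks thalamus (298.8 to 461.2 CPM) and substantia nigra (309.6 to 422.0 CPM) again overlapped, with the higher mean log level in thalamus. Scd1 and Scd2 lie near each other on chr19 and are close in sequence, so a split of reads between them is uncertain.

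Pmvk was highest in thalamus. At 12 weeks it averaged 65.74 ± 3.817 CPM (SD, n = 5) in thalamus and 18.18 ± 1.344 CPM (SD, n = 5) in striatum, its lowest region, with a change against the other regions of 1.29 ± 0.04 in thalamus (adjusted p = 3.72e-22) and −0.91 in striatum. The 12-week thalamic libraries read 61.65 to 69.81 CPM and those of substantia nigra, the next in order, 38.89 to 41.72 CPM, with no overlap. At 4 weeks substantia nigra reached 137.8 CPM in the library labelled WT 92, against a group median of 44.54 CPM. Srebf1 ran from 72.47 to 85.69 CPM in substantia nigra and 62.66 to 75.18 CPM in thalamus down to 22.41 to 33.93 CPM in prefrontal cortex at 4 weeks (0.84, 0.63 and −0.91 against the other regions).

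Some genes had another order. Srebf2 and Scap were highest in striatum at 4 weeks, and Srebf2 was higher there at both ages (0.44 and 0.31) and lower in thalamus (−0.50 and −0.37). Hmgcs1 in prefrontal cortex was level with the other regions at 4 weeks (0.01) and above them at 12 weeks (0.50). Sqle in striatum went from −0.44 to −0.96 against the other regions, and Stard4 in hippocampus from −0.56 to −0.99. Insig1 was higher in substantia nigra (0.99 and 1.26) and lower in striatum (−0.41 and −0.73).

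**Figure D5:**
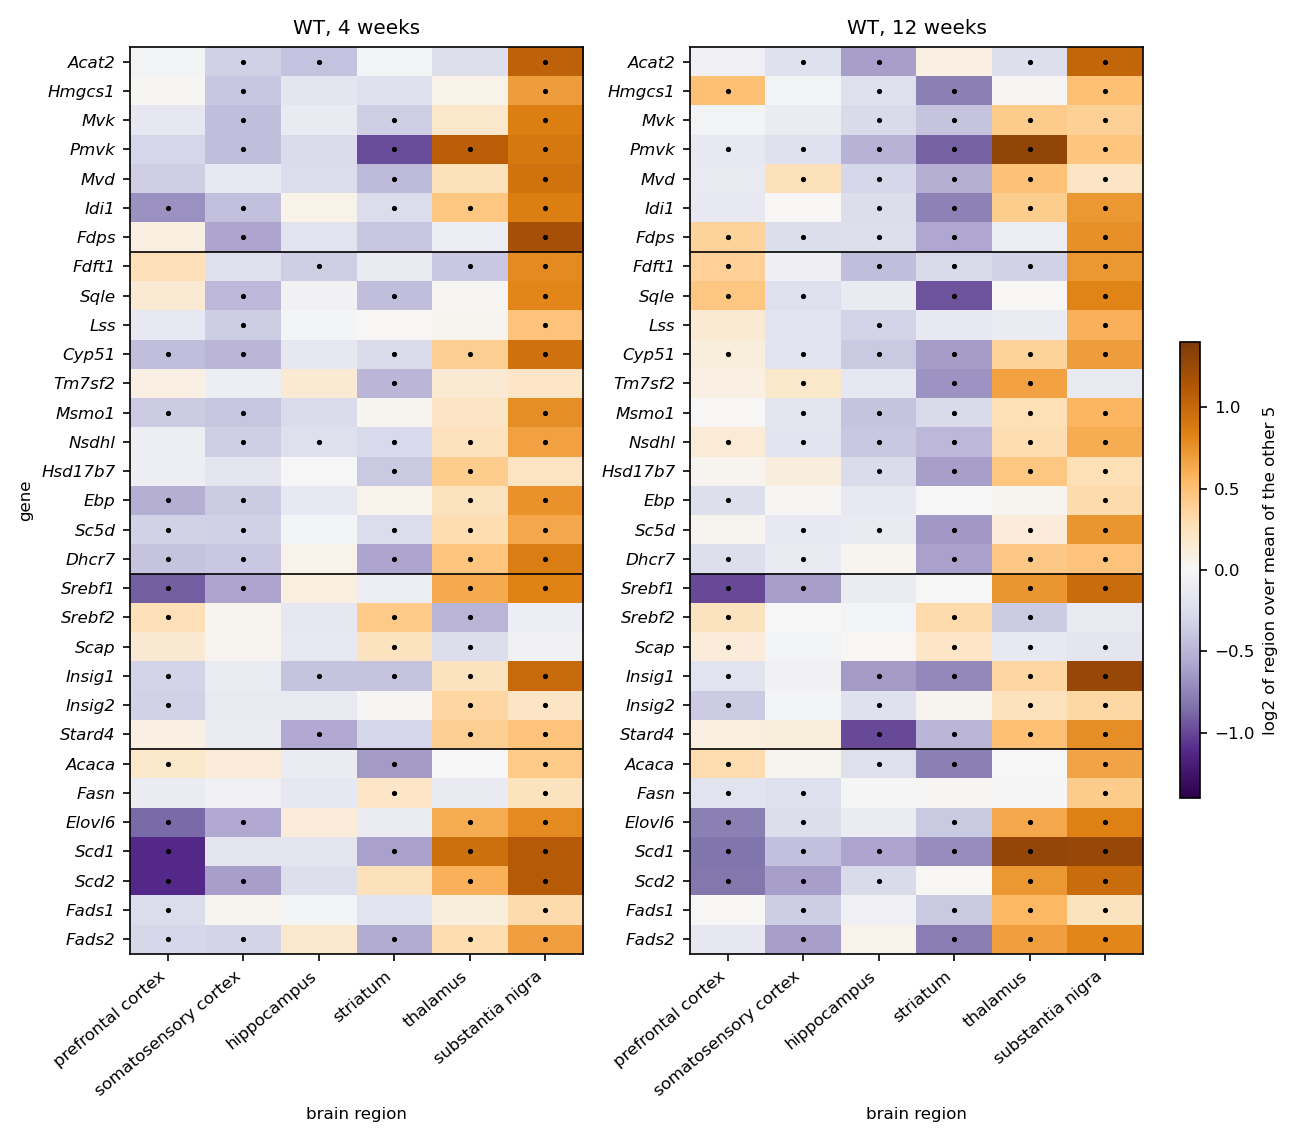
Log2 of each WT region over the mean of the other 5 for the 31 genes at 4 (left) and 12 weeks (right), with a dot where the adjusted p was below 0.05. The substantia nigra column is higher for 27 and 28 genes, and striatum has 15 and 22 lower.

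All 11 myelinating oligodendrocyte markers were also higher in substantia nigra, thalamus and striatum and lower in both cortical regions at both ages, so the markers had the same direction as the 27 and 28 genes higher in substantia nigra and the 16 and 20 higher in thalamus, and the opposite direction to the 15 and 22 genes lower in striatum. With their mean as a covariate, 4 genes passed in 4-week substantia nigra (9.84% of all genes) and 10 in thalamus (26.1%), and 14 (17.1%) and 11 (23.9%) at 12 weeks. These counts include both directions. The marker mean of WT prefrontal cortex, 5.011 to 6.265 at 4 weeks and 4.617 to 5.137 at 12 weeks, overlapped that of no other region. At 12 weeks it was 8.620 to 8.973 in substantia nigra. Marker level and region cannot be told apart between such regions, so this fit does not separate them. The library labelled WT 92 of 4-week substantia nigra had a mean myelin marker level of 11.03, against 9.60 to 10.10 in the other 5 WT libraries, and a mean level of the 31 genes of 6.978.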

How the data were processed

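Regions were taken from frozen brains in a cryostat, RNA came from an RNeasy kit and, per the labels' protocols, 200 ng per sample entered the TruSeq Stranded mRNA kit. The authors deposited expected counts (estimated counts that need not be whole) per gene symbol, and 77.9% of values above 0 were not whole. In 16 libraries, all of 4 weeks, 4.80% to 5.55% were whole, against 17.3% to 36.9% in the rest, and an alternative chosen after seeing the data left the 16 out of the age and region fits. The submitters' processing notes name Salmon, without version or role, and mm10. The sources used here do not say whether counting used strand. Totals per library were 20.8 to 73.3 M counts (M, mega; mean 46.1 ± 9.60, SD, n = 186), and 0 columns lacked a sample. Over 390 pairs of replicates, chi-square divided by its degrees of freedom was never under 7.97, and each library counted as 1 sample.

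Counts were rounded and fitted with edgeR 4.0.16 in R 4.3.3 (TMM, filterByExpr, glmQLFit, glmQLFTest). KO and HET were compared with WT in 1 fit per region and age, ages in 1 fit per region over all genotypes, and regions in 1 fit per age. Benjamini-Hochberg adjustment ran over all genes of a comparison, with calls below 0.05, and every adjusted p printed is from edgeR. CPM are TMM-scaled over all 186 libraries, and log2 levels use a pseudocount of 1. Intervals are 95%. Alternatives were DESeq2 1.42.0, relative log expression scaling, no filter, covariates, the replicate number as a block (12-week genotype fits, and across regions with limma 3.58.1) and libraries left out. Named genes were Akap11, any gene called for genotype or else the 6 with the largest mean KO change, the 6 called genes with the largest mean age change, the 4 with the widest range among regions, and up to 3 per comparison of other lists. Further genes were chosen with their values in view. The members and lists were chosen with earlier results of these data known. Positions are from GENCODE M21 on GRCm38, the same build as mm10. The edgeR fits of KO against WT in 12-week striatum and of the WT age change in striatum were tested on simulated counts. The other fits were not. Where counts could split near-identical or antisense genes, values are uncertain.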

Additional observations from a re-analysis of the deposited data

Results flagged for a closer look

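In 5 groups 1 library lay far from the others of its group, by the size of its gap relative to the range. Of 108 sets of values read this way, chance alone flags about 1 in 20. The mean log2(CPM + 1) of the 31 genes was 5.827 in 4-week somatosensory cortex HET 931, against 5.964 to 6.035 in the other libraries. It was 5.776 in 12-week somatosensory cortex KO 2, against 5.957 to 6.007, and 6.131 in 12-week thalamus WT 1, against 6.270 to 6.302. Mvd read 25.61 CPM in 4-week prefrontal cortex WT 23, against 20.16 to 21.66 CPM. In 4-week substantia nigra Mvd read 118.5 CPM in the library labelled WT 92, against 27.38 to 39.06 CPM.

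The WT age change of 10 genes differed between 1 region and the mean of the other 5 (edgeR, n = 5 or 6 libraries per group). In prefrontal cortex Cyp51 differed by 0.57 and Idi1 by 0.56 on the log2 scale. In striatum Sqle differed by −0.50. In thalamus Tm7sf2 differed by 0.54, Fads1 by 0.45 and Fads2 by 0.41. In substantia nigra Mvd differed by −0.78, Mvk by −0.51, Ebp by −0.47 and Dhcr7 by −0.43. Of these regions, thalamus and substantia nigra hold 4-week WT libraries whose region markers stood apart, and without such libraries 0 and 1 genes differed there.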

How the results depend on the processing

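Of 631 recomputed counts of passing genes, 606 stayed within 1.5 times of the reported count and 25 did not, and the cause was not tested for those. Genotype counts of 0 became 1 in KO striatum, at 4 weeks without KO 12 (range 0 to 1 over libraries left out) and at 12 weeks without KO 2 or WT 2 (range 0 to 1) and with the replicate block, which changed no other genotype count. The 12-week numbers pair libraries by number only. WT and KO deviations correlated at −0.343 to 0.435 in striatum and 0.131 to 0.354 in hippocampus, and Lbr gave 0.39 with the block (adjusted p = 0.0207). For age, KO libraries gave 4 genes in prefrontal and 9 in somatosensory cortex, and WT libraries alone gave 6 in substantia nigra. With the myelin marker covariate 9 passed in hippocampus, 8 in somatosensory cortex, 6 in substantia nigra and 5 in striatum. In that order 8, 6, 3 and 4 of them were lower, against 5.02%, 10.1%, 13.7% and 1.96% of all genes. The other 1, 2, 3 and 1 were higher, against 4.95%, 10.3%, 10.9% and 3.82% of all genes. Leaving out 1 WT library gave 20 to 26 in hippocampus, 21 to 23 in striatum, 16 to 20 in substantia nigra, 12 to 15 in somatosensory cortex, 12 to 14 in thalamus and 6 to 11 in prefrontal cortex. For regions at 4 weeks, counted in either direction, the covariate raised the count in hippocampus from 5 to 16. It lowered the count from 19 to 10 in thalamus (26.1% of all genes passed) and from 27 to 4 in substantia nigra (9.84%). In somatosensory cortex the count went from 18 to 3. The genes that passed with the covariate need not be those of the main fit. Hippocampus had 8 without the libraries that stood apart. At 12 weeks the covariate took the count from 19 to 0 in prefrontal and from 18 to 4 in somatosensory cortex. It went from 24 to 11 in thalamus (23.9% of all genes) and from 29 to 14 in substantia nigra (17.1%). The region difference of the age change gave 3 in striatum by DESeq2, and without the libraries that stood apart 0 in thalamus, 1 in substantia nigra and 1 in hippocampus. Without the 16 libraries with few whole values it gave 2 in substantia nigra.

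Of 1138 recomputed values of single genes, 1075 kept direction and side of the threshold, 36 no longer passed, 10 newly passed and 17 changed sign. For age, Cyp51 in prefrontal cortex became 0.019 with the covariate, 0.21 in KO and 0.11 in HET libraries, and in substantia nigra the covariate gave 0.29 for Mvd, 0.0003 for Fasn and 0.028 for Sqle. For regions at 4 weeks it gave 0.056 for Scd1, 1.58 for Pmvk (adjusted p = 0.0186) and 0.13 for Scd2 in prefrontal cortex, 0.39 for Scd1 and 0.46 for Pmvk in somatosensory cortex, −0.071 for Scd2 in striatum and −0.46 for Pmvk in substantia nigra. At 12 weeks it gave 0.055 for Scd2 in prefrontal cortex and, in striatum, −0.18 for Scd2 and 0.0498 for Srebf1, for which relative log expression scaling gave 0.0103. Counts were not near 0 for any of the 31 genes, the lowest level being 6.485 CPM for Mvd. Whether counts limited the comparisons was not tested. The median half-width of the 95% intervals for KO against WT ranged widely at 5 or 6 libraries per group, from 0.13 in 12-week to 0.32 in 4-week substantia nigra on the log2 scale.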
